A study of Mus musculus with 4 samples.

Results

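Neurons hold microglia in a surveying state through a small set of paired molecules. Here 10 genes of these pairs were followed through the classes of brain nuclei that could be named. They were the ligands Cx3cl1, Cd200 and Cd47, the receptors Cx3cr1, Cd200r1, Sirpa, P2ry12, P2ry13 and P2ry6, and the ectoenzyme Entpd1. The genes were taken by their symbols, and all 10 were present among the 31053 genes of each count matrix. The nuclei came from brains of female C57/BL6 mice that were 2 months old, perfused before dissection: 2 wild-type (WT) animals, and 2 Csf1r+/- animals that carry 1 inactive copy of the gene for the receptor of colony-stimulating factor 1 in every cell. Each animal gave 1 library, the nuclei were released without detergent, and myelin debris was taken out with magnetic beads. At this age Csf1r+/- mice model an adult-onset microglial leukoencephalopathy before symptoms, so the comparison asks what differs in the brain ahead of disease. With 2 libraries a genotype, p-values refer to these 4 mice alone, and the spread behind them was estimated with all genes together.

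CX3CL1, also called fractalkine, is a membrane-bound chemokine that neurons can shed, and its receptor CX3CR1 is a G protein-coupled receptor of microglia and other macrophages. CD200 is an immunoglobulin-family protein of neurons and endothelium that restrains myeloid cells through the inhibitory receptor CD200R1. CD47 is a widely expressed signal against engulfment that is read by SIRPA, which recruits tyrosine phosphatases. P2RY12 and P2RY13 sense ADP, P2RY6 senses UDP and takes part in phagocytosis, and ENTPD1 (CD39) is the surface enzyme of microglia that degrades ATP and ADP.

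After filtering (500 to 50000 UMIs, the unique molecular identifiers that mark single captured RNA molecules, more than 200 genes and under 5% mitochondrial UMIs) 16114 and 15247 WT nuclei and 9589 and 11182 Csf1r+/- nuclei remained, with median depths of 5490, 4636, 7454 and 6656 UMIs. Between 33 and 68 cell barcodes were shared by any pair of libraries, at most 0.465% of the smaller one. Clusters built without the 10 genes gave 26494 excitatory, 15755 inhibitory and 2370 other neuron nuclei, 2258 oligodendrocyte, 452 endothelial and 640 microglia nuclei, and no astrocyte cluster. All 16 microglia markers (C1qa and Tmem119 among them) were enriched in the microglia nuclei, which numbered 176, 157, 169 and 138 in the 4 libraries. Microglia nuclei were shallow, with medians of 1111 to 1453 UMIs against 5786 to 9271.5 in excitatory neurons, and the class sums behind the values below held 211404, 219599, 250385 and 179752 UMIs in microglia. Levels are given as CPM, the UMIs of a gene per 1000000 UMIs of the class or cluster in a library. In single nuclei these are levels of nuclear RNA.

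Cx3cl1 RNA was found in every neuron cluster and was highest in a layer 6 CT-like one. In excitatory neurons it stood at 60.4 and 74.6 CPM in the WT libraries and 80.6 and 56.9 in the Csf1r+/- libraries. In inhibitory neurons the values were 47.0, 59.3, 52.0 and 47.1 CPM. Each library thus had more Cx3cl1 in excitatory than in inhibitory neurons, by 0.40 ± 0.16 on the log2 scale (SD, n = 4), a ratio of the mean levels of 1.33. Since the classes were built from the same nuclei, this and the other differences between cell types are descriptions without a test.

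Across 29 neuron clusters the mean level of Cx3cl1 ranged from 19.2 to 93.0 CPM. The highest was the layer 6 CT-like cluster (corticothalamic neurons, 4060 nuclei with Foxp2, Syt6 and Tle4), at 82.1, 108, 106 and 76.5 CPM. This cluster came first in all 4 libraries. It was followed by an upper-layer-like cluster at 76.4 ± 12.3 CPM (SD, n = 4) and by an inhibitory cluster led by Sh3rf2 and Rarb at 73.8 ± 6.1 CPM. The lowest was the cluster led by Tph2, a serotonin synthesis gene, and Ddc, with 11 UMIs of Cx3cl1 in its 56 nuclei, at 19.2 ± 7.4 CPM. Next to it stood the cluster led by Six3 and Isl1, at 24.3 ± 9.3 CPM. Between clusters that are neighbours in this order the ranges of the 4 libraries overlapped in 28 of 28 cases. These ranges run over libraries and do not pair clusters within a library. Clusters farther apart in the order were not compared in this way.

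Cd200 had the opposite balance between the main neuron classes, and its CPM was higher in endothelial cells than in neurons, although neurons, being most of the nuclei, held 10542 of the 11812 Cd200 UMIs. Inhibitory neurons held 37.5, 38.5, 42.3 and 31.4 CPM and excitatory neurons 30.8, 27.6, 28.5 and 27.7 CPM. The log2 ratio of excitatory to inhibitory neurons was -0.38 ± 0.18 (SD, n = 4) and was below 0 in every library. A single cluster, led by Otx2os1 and Ebf3, made up 7892 of the 15755 inhibitory nuclei. It held 645, 514, 537 and 372 of the 1018, 918, 871 and 595 Cd200 UMIs of the class. The opposite balance is thus not shown for inhibitory neurons outside this cluster. Endothelial cells stood at 238 and 176 CPM in the WT and 251 and 135 CPM in the Csf1r+/- libraries, with no overlap with the neurons. Microglia held only 5 UMIs of Cd200 in 640 nuclei. Among neuron clusters the highest was the excitatory cluster led by Oprk1 and Car3 (412 nuclei) at 70.3, 49.0, 60.7 and 62.7 CPM. It came first in 2 of 4 libraries, and its mean was 1.97 times the median of all clusters. The lowest was the inhibitory cluster led by Lgr6 and Frmd7, at 19.6 ± 1.8 CPM, a cluster with 67.7 ± 11.99 CPM of Cx3cl1, above the median cluster.

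Cd47 was spread over every class. Endothelial cells held 232, 184, 235 and 185 CPM. Microglia themselves held 132, 173, 128 and 117 CPM, and oligodendrocytes held 91.8 ± 6.3 CPM (SD, n = 4). Excitatory and inhibitory neurons overlapped, at 106.8 ± 4.7 and 107.7 ± 4.4 CPM, and their log2 ratio changed sign between libraries. Within neurons the range was nevertheless wide. The layer 5 NP-like cluster (near-projecting neurons with Tshz2, Vwc2l and Slc17a8, 914 nuclei) held 218, 212, 189.6 and 174 CPM, and the excitatory cluster led by Col18a1 and Fam107b 187 ± 29.8 CPM. The layer 6 CT-like cluster, first for Cx3cl1, came next for Cd47 with 158 ± 10.8 CPM. The layer 5 ET-like cluster (extratelencephalic neurons) held 69.0 ± 14.5 CPM of Cx3cl1 and was next to last for Cd47 with 72.7 ± 8.6 CPM. The layer 5 NP-like cluster came first for Cd47 in 2 of 4 libraries. Neighbours in the order of Cd47 overlapped in 28 of 28 cases. By the mean of the libraries, the cluster that came first thus differed for each of the 3 ligands.

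**Figure D1:**
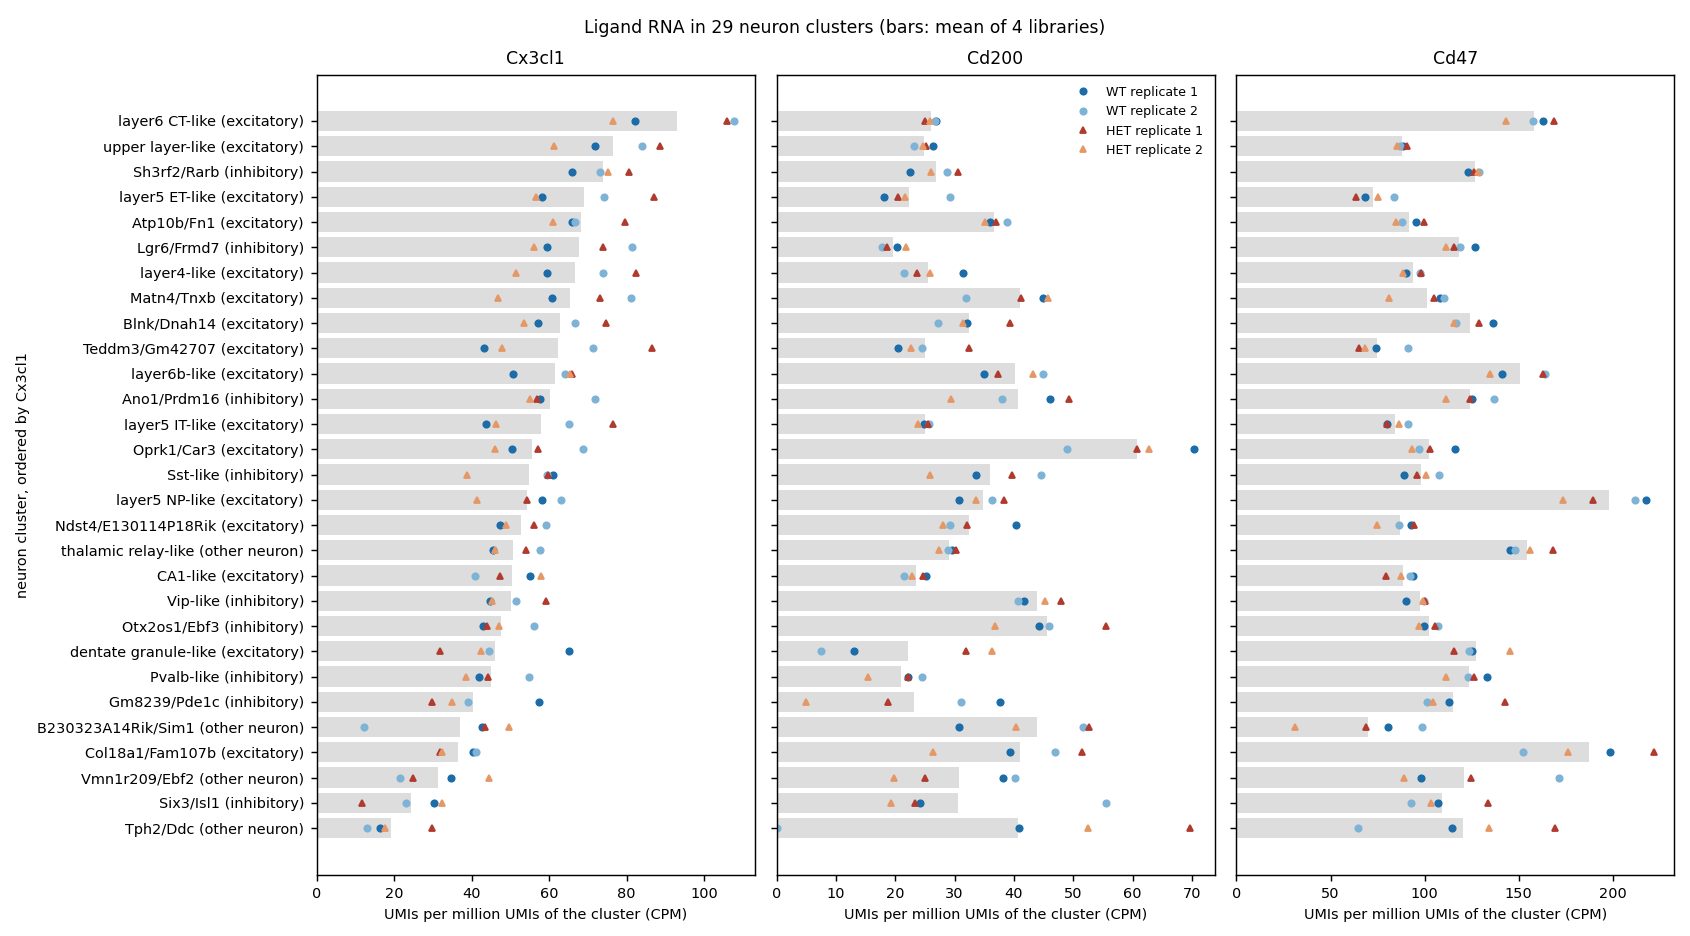
CPM of Cx3cl1, Cd200 and Cd47 (x axes, linear, from 0) in 29 neuron clusters (y axis, ordered by the mean of Cx3cl1); grey bars are means of the 4 libraries, circles WT and triangles Csf1r+/- libraries. Cx3cl1 fell from 93.0 CPM in the layer 6 CT-like cluster to 19.2 CPM, Cd200 stood out in the cluster led by Oprk1 and Car3, Cd47 in the layer 5 NP-like cluster, and the genotypes were intermixed along most rows.

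Over the 29 clusters, the genes whose log2 levels ran most like those of a ligand were picked by Pearson's r among 6200 genes with a mean of at least 20 CPM, as a description with no test, since the clusters share libraries and differ in depth. For Cx3cl1 these were Grin1, which encodes the obligatory subunit of NMDA receptors (r = 0.900), Calm2, a calmodulin gene (0.880), Synpo, which encodes the spine protein synaptopodin (0.853), Gda (0.835) and 3110039M20Rik (0.824). For Cd200 the closest were Cops5 (0.729), Uchl1, a neuronal deubiquitinase (0.727), Bloc1s2 (0.684), Dnajc10 (0.683) and 4930488L21Rik (0.681). For Cd47 they were Spop (0.718), Phf14 (0.705), the glycine receptor gene Glra2 (0.667), St3gal1 (0.651) and Asxl2 (0.647). The level of Cx3cl1 itself kept its order well from library to library (r between 0.635 and 0.788 over the clusters), whereas that of Cd200 did not always (r from -0.146 to 0.762).

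The receptors were concentrated in microglia, with Sirpa, P2ry12 and Cd200r1 as partial exceptions. Cx3cr1 stood at 1126 and 1143 CPM in WT microglia and 1526 and 1346 CPM in Csf1r+/- microglia, and a UMI was present in 71.6% of the 640 nuclei. Apart from 27 border macrophage nuclei, no other class exceeded 11.9 CPM on average, and 4.90% of neuron nuclei had a UMI although they were several times deeper. Cd200r1 was sparse, with 52 UMIs in all microglia nuclei, at 85.1, 36.4, 75.9 and 38.9 CPM. The replicates of each genotype lay farther apart than the means of the genotypes. The 27 border macrophage nuclei held 7 UMIs of Cd200r1, at 130 ± 101 CPM (SD, n = 4).

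Sirpa, the CD47 receptor, was present at 752, 569, 799 and 734 CPM in microglia and was also a neuronal gene. Excitatory neurons held 58.5, 70.1, 59.5 and 58.4 CPM and inhibitory neurons 40.9, 47.1, 40.0 and 37.9 CPM. The excitatory class was higher in 4 of 4 libraries, by 0.57 ± 0.04 on the log2 scale. Among neuron clusters Sirpa was highest in the cluster led by Oprk1 and Car3 (81.3 ± 12.8 CPM, SD, n = 4), the same cluster that led for Cd200, and second in the layer 6 CT-like cluster (75.2 ± 4.1 CPM). It was lowest in the cluster led by Col18a1 and Fam107b (20.5 ± 10.2 CPM), which was second for Cd47. The genes with the most similar order over the clusters were Kcnh3, a potassium channel gene (r = 0.827), Fhl2 (0.813), Synpo (0.810), Celf5 (0.803) and Trim9 (0.799).

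Of the nucleotide receptors, P2ry12 stood at 1580, 1084, 1562 and 1330 CPM in microglia and 73.1% of the nuclei had a UMI. P2ry13 stood at 104, 118, 224 and 167 CPM, and P2ry6 at 156, 205, 239.6 and 250.3 CPM. Both Csf1r+/- values lay above both WT values for P2ry13 and P2ry6 but not for P2ry12. P2ry6 was low outside microglia and border macrophages. Its mean was 0.79 CPM in excitatory neurons, and no UMI was seen in 452 shallow endothelial nuclei, which allows up to 0.664% of them to have a UMI and sets no limit on how many express the gene. Within neurons it was highest in the hippocampal CA1-like cluster, where 23 UMIs gave 3.05 ± 1.76 CPM. Entpd1 stood at 724, 815, 990.5 and 757 CPM in microglia. Endothelial cells also held this ectoenzyme RNA, at 139.8, 144, 157 and 99.6 CPM, as did 161 oligodendrocyte precursor nuclei at 50.3 ± 27.7 CPM and the border macrophages with 10 UMIs, while excitatory and inhibitory neurons held 3.08 ± 0.72 and 3.004 ± 0.388 CPM.

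**Figure D2:**
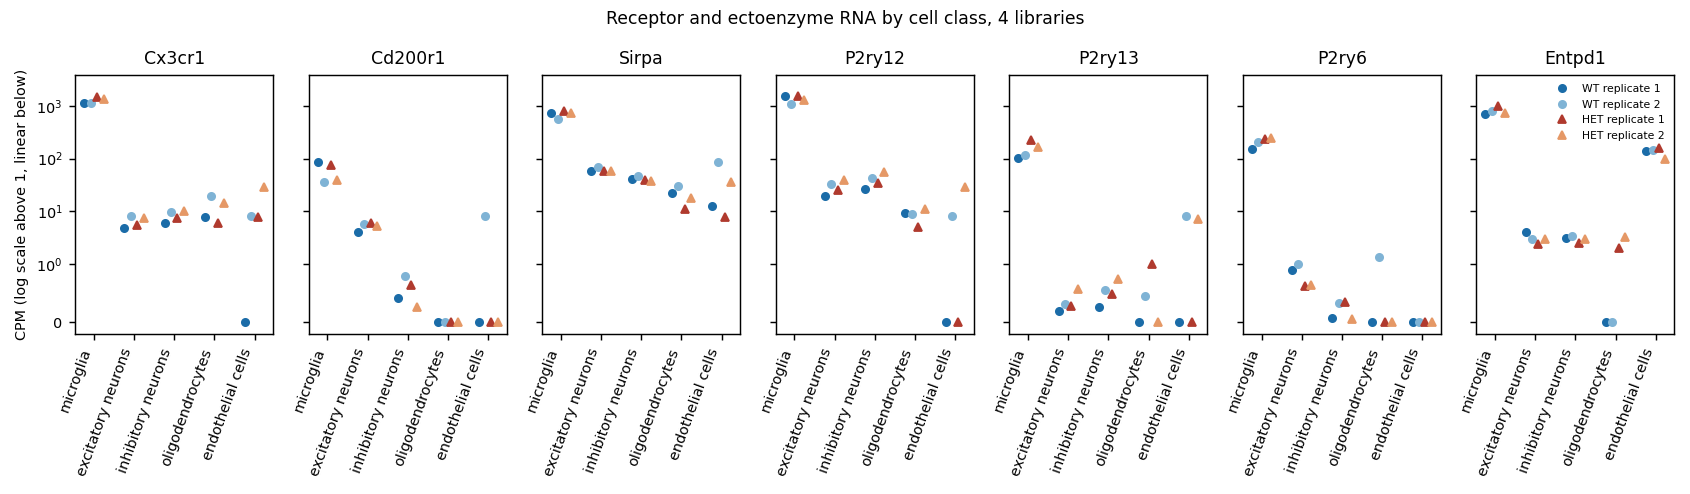
CPM of the receptors and of Entpd1 (y axis, logarithmic above 1 and linear below) in 5 cell classes (x axis), with 1 point for each library, circles WT and triangles Csf1r+/-. Each gene was highest in microglia in all 4 libraries, Entpd1 was second in endothelial cells, and Sirpa and P2ry12 had neuronal levels of 37.9 CPM or more and 19.3 CPM or more.

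Receptor RNA in neuron nuclei was set beside that of the 16 microglia markers, because RNA released during isolation gives UMIs of microglial genes in other nuclei. Relative to the level in microglia, the markers were found in neurons at a median of 0.0668%, and each of them under 1% in every library. P2ry13 (0.263%), P2ry6 (0.275%), Entpd1 (0.374%) and Cx3cr1 (0.543%) also stayed under 1%, though each was above the median of the markers. The mean for Cx3cr1 was above that of every marker, but not so in every library. P2ry12 lay at 2.37%, Cd200r1 at 6.25% and Sirpa at 7.72%, and these genes exceeded every marker in every library. In shares of nuclei, P2ry12 had a UMI in 19.7% of neuron nuclei (10851 UMIs), against 0.957% for C1qa.

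**Figure D3:**
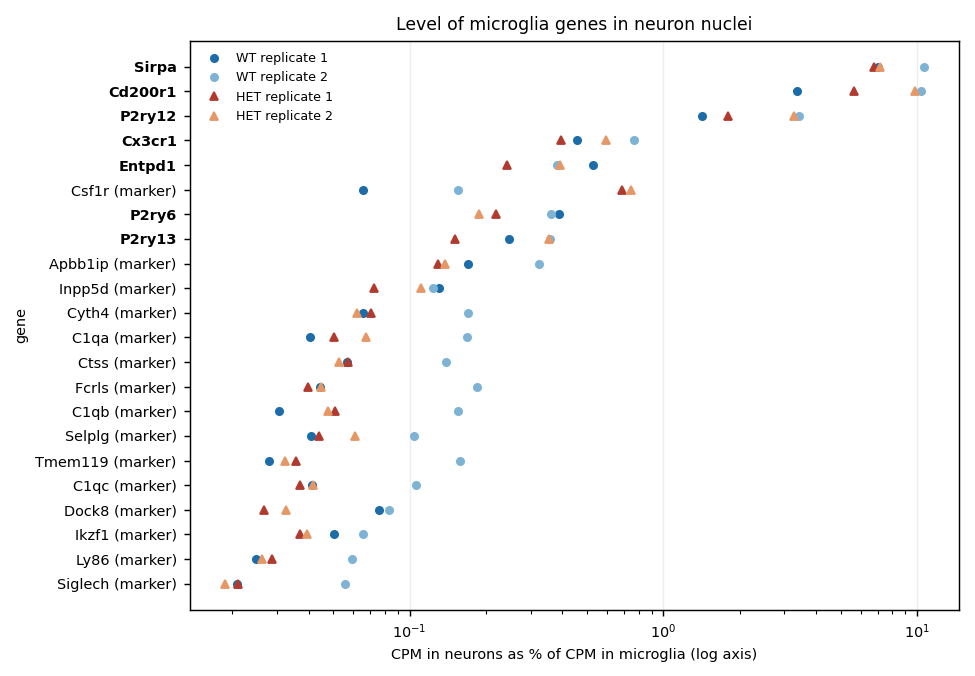
Level of each gene in neuron nuclei as a percent of its level in microglia (x axis, logarithmic) for the 7 receptor and ectoenzyme genes (bold) and 15 microglia markers, 1 point for each library. Sirpa, Cd200r1 and P2ry12 lay above 1% in all 4 libraries, and every marker plotted lay under 1% in all of them.

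Neuronal Cd200r1 was highest in 1 cluster, which held 638 of its 1228 UMIs in neurons. The layer 4-like cluster (5866 nuclei with Rorb, Rspo1 and Whrn) held 11.7, 17.3, 15.8 and 13.02 CPM, from 638 UMIs, and was first in all 4 libraries. It stood at 24.9 times the median neuron cluster, which was low at 0.58 CPM, and inhibitory neurons held 0.52 ± 0.24 CPM. The next clusters, led by Teddm3 and Gm42707 and by Atp10b and Fn1, held 8.02 ± 4.37 and 7.93 ± 4.59 CPM, and both were excitatory. In oligodendrocytes no UMI was found in 2258 nuclei, which allows up to 0.133% of them to have a UMI.

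Neuronal P2ry12 was more even over the clusters. It ranged only from 20.8 to 54.5 CPM over the 29 clusters, and in inhibitory neurons it was 27.1, 43.6, 33.8 and 55.6 CPM. In excitatory neurons it was 19.3, 32.8, 25.2 and 39.3 CPM. Replicate 2 of each genotype was higher than replicate 1 of either genotype in both classes. P2ry12 (chr3:59216272-59262871, minus strand of GRCm38, the mm10 assembly) and P2ry13 (chr3:59207892-59210882, minus strand) lie wholly within Med12l (chr3:59005825-59318682, plus strand), a Mediator subunit gene that neurons transcribe. P2ry12 shares 9 exon bases with Med12l and P2ry13 shares none. Med12l stood at 250.01, 218, 222 and 236 CPM in neurons, and P2ry12 amounted to 8.97, 17.1, 12.7 and 18.4% of it. P2ry13 amounted to 0.103, 0.195, 0.152 and 0.251%. The library highest for Med12l in neurons was the lowest for P2ry12. Over the 29 clusters the log2 levels of the genes had r = 0.778 for the mean of the libraries, but -0.0471 to 0.692 within single libraries, as a description. Whether the counting used the strand of the reads is not given in the sources used here, so that neuronal UMIs of P2ry12 and reads of its antisense partner cannot be told apart. In microglia P2ry12 was 384, 259, 403 and 221% of Med12l.

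The other genes were placed as follows in the GENCODE annotation of GRCm38. Cx3cl1 lies at chr8:94772009-94782427 (plus), Cd200 at chr16:45382135-45409053 (minus), Cd200r1 at chr16:44765736-44794978 (plus) and Cd47 at chr16:49800533-49915010 (plus). Sirpa lies at chr2:129592835-129632228 (plus), P2ry6 at chr7:100937630-100974649 (minus) and Entpd1 at chr19:40612366-40741602 (plus). These genes overlap no other protein-coding gene. Cx3cr1 (chr9:119901616-120069879, minus) has a gene model that overlaps 5 others, of which Gorasp1, Csrnp1 and Xirp1 are on its own strand and Wdr48 and Ttc21a on the other, with no exon base in common.

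The stretches upstream of 3 receptor genes of microglia are shown because P2ry12, P2ry13 and Cx3cr1 had their highest level in the same group of microglia (described next): 250 bases before the RefSeq start, 5′ to 3′ on the gene's strand, GRCm38.p6, with every AGGAAG (or CTTCCT, its reverse complement) in capitals. AGGAAG holds the GGAA core that ETS factors such as the myeloid regulator PU.1 bind. Sirpa and P2ry6 were also highest in that group of microglia but had no window, so the 3 genes shown are not a set apart. The motif was chosen after the sequences had been seen. It was present in 29.5% of 32851 windows of the same length.
P2ry12, chr3:59262986-59263235, minus strand: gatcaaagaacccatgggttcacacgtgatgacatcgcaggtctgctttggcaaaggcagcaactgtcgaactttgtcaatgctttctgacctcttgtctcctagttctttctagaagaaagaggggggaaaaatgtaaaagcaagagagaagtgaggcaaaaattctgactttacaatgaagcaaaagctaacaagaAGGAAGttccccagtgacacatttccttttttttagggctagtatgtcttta
P2ry13, chr3:59210883-59211132, minus strand: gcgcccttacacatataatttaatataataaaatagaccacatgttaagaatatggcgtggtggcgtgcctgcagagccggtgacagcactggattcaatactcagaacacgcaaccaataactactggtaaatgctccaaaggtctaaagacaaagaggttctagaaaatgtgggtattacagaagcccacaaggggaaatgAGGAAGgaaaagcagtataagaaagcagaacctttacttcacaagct
Cx3cr1, chr9:120068297-120068546, minus strand: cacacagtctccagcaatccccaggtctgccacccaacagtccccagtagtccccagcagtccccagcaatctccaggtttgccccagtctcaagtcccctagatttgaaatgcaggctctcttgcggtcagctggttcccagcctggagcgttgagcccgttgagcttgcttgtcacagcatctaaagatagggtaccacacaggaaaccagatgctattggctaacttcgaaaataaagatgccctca
P2ry12 and P2ry13 each held 1 match and Cx3cr1 none. The RefSeq start used for P2ry12 was not found among its GENCODE transcripts. Windows were found for 7 of the 10 genes, and of these only Cx3cl1 also held a match. The motif was thus in 3 of 7 windows, beside 29.5% of all windows, and a match is a description of letters, not a binding site.

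The receptors varied among microglia. In 640 nuclei, 4.69% had no UMI of any of the 6 receptors, 29.2% had UMIs of 2 and 28.3% of 3, and 0.469% had all 6. Subclustering gave 5 parts of 71 to 210 nuclei, all with the microglia markers. P2ry12 was highest in the part led by Tmsb4x, Gpx1 and Cst3 (113 nuclei), at 2620, 1289, 2598 and 1610 CPM, and Cx3cr1 was highest in the same part, at 1497, 1678, 1775 and 2047 CPM. P2ry13, P2ry6 and Sirpa were highest in this part as well, and Cd200r1 in another. The ratio of the highest to the lowest part was 1.81 for P2ry12, 1.58 for Cx3cr1 and 3.04 for P2ry13, and only 1.23 for P2ry6. These ratios are descriptions, and the ranges of the libraries in the highest and lowest part overlapped for all receptors but Sirpa. A separate group of 27 nuclei with the border macrophage genes Mrc1, F13a1 and Cd163 held less of the parenchymal receptors: 14 UMIs of P2ry12 (278 CPM) and 10 UMIs of Cx3cr1 (199 CPM), against 12 UMIs of P2ry6 (239 CPM).

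The genotype comparison in microglia was led by P2ry13, though no member passed the threshold of an unadjusted p under 0.01. P2ry13 had 22, 26, 56 and 30 UMIs, with WT at 104 and 118 CPM against 224 and 167 CPM, a log2 fold change of 0.74 ± 0.29 (SE) with a 95% interval of 0.13 to 1.35. Its unadjusted p was 0.0199 in edgeR's quasi-likelihood test and 0.191 after Benjamini-Hochberg adjustment over all genes tested. For a single value the exact permutation test of 2 against 2 libraries cannot go below 0.333, so that the p-values of this comparison rest on the spread that edgeR estimates over all genes. P2ry6 differed by 0.35 (interval -0.16 to 0.86, adjusted p = 0.585) and Cx3cr1 by 0.26 (-0.16 to 0.67, adjusted p = 0.634) in the same edgeR fit. For these 3 receptors both Csf1r+/- libraries were above both WT libraries. For Cd47 both were below, at 128 and 117 against 132 and 173 CPM, with a log2 fold change of -0.40 (-1.04 to 0.24). Groups without overlap were thus found for 4 of the 9 genes with enough UMIs to be tested, where 47.3% of all genes tested had no overlap in this comparison (28.5% higher and 18.8% lower in Csf1r+/-).

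For the remaining members the genotypes overlapped. P2ry12, a marker of homeostatic microglia, differed by 0.04 (interval -0.42 to 0.49), so that levels from 0.748 to 1.41 times that of WT lay within the interval. Sirpa differed by 0.13 (-0.30 to 0.57), Entpd1 by 0.10 (-0.33 to 0.54), Cd200r1 by -0.10 (-1.04 to 0.84) and Cx3cl1, with 29 UMIs in microglia, by -0.18 (-1.03 to 0.67). At an unadjusted p under 0.01, 0 of 9 members were called, 7 of them seen in at least 10% of the nuclei of a genotype, against 8.36% of the 2953 genes above that detection limit in microglia. At p under 0.05 it was 1 member, beside 15.2% of these genes, and DESeq2 and the edgeR likelihood-ratio test also called 0 at 0.01. Csf1r itself, the targeted gene, was at 191, 199, 153 and 108 UMIs in microglia and fell by 0.66 ± 0.20 on the log2 scale with an unadjusted p of 0.00336 in edgeR (adjusted p = 0.0555), 0.632 of the WT level. It missed the threshold without either Csf1r+/- library (unadjusted p of 0.0193 and 0.0154 in edgeR) and with DESeq2 (0.0228).

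**Figure D4:**
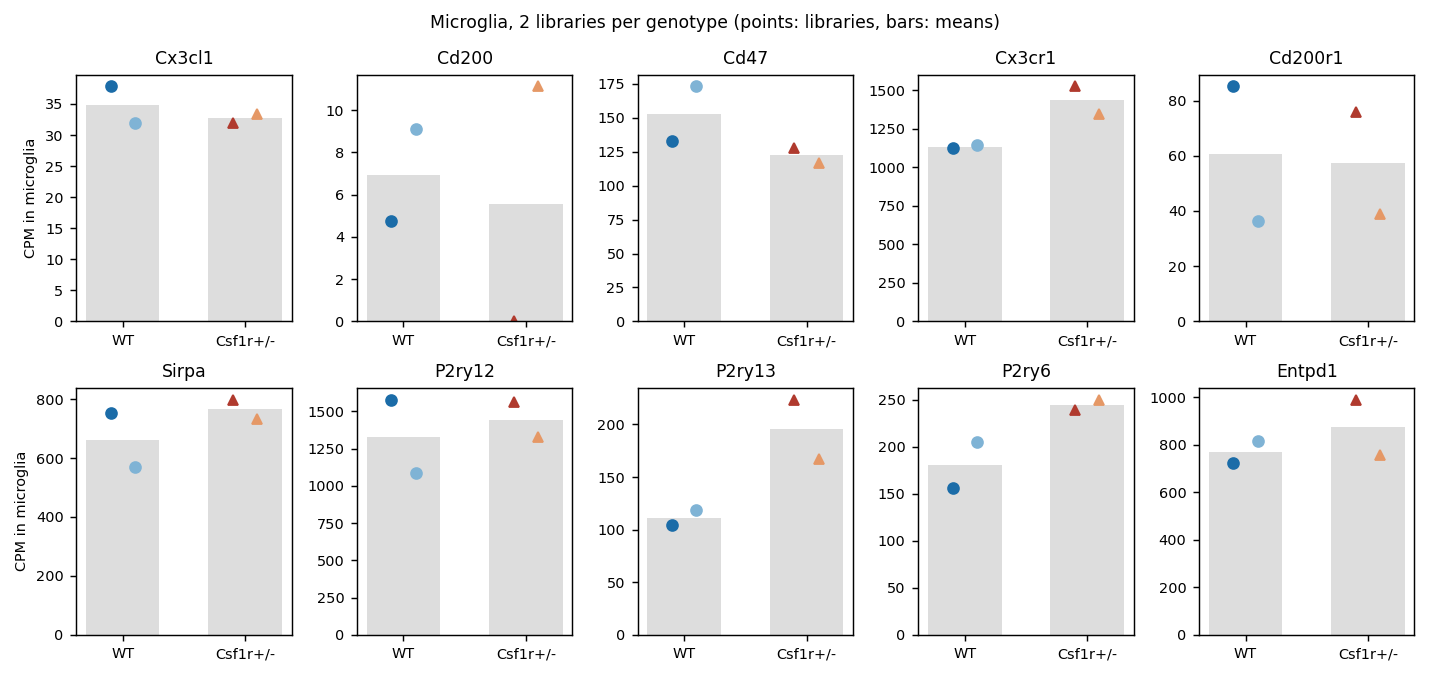
CPM of the 10 genes in microglia (y axes, linear, from 0), with 1 point for each library, circles WT and triangles Csf1r+/-, and bars for the mean of each genotype. P2ry13, P2ry6 and Cx3cr1 had both Csf1r+/- points above both WT points, Cd47 both below, and the others overlapped.

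Neuronal RNA in the microglia nuclei moved with genotype. Parts of the microglia cluster with much neuronal or oligodendrocyte RNA had been left out beforehand, and WT replicate 2 lost the most, from 406 to 157 nuclei. The summed level of 10 pan-neuronal markers was 8136 and 7901 CPM in WT microglia and 3295 and 4773 CPM in Csf1r+/- microglia, and RNA resembling the average nucleus of the library was estimated to make up 27.2, 28.8, 11.4 and 16.2% of their UMIs. The part of this RNA in the results was assessed only by subtraction. With that share subtracted, the log2 fold change was 0.55 for P2ry13 (unadjusted p of 0.0722 in edgeR), 0.15 for P2ry6 and 0.07 for Cx3cr1, and P2ry12 (-0.15), Sirpa (-0.04) and Entpd1 (-0.09) turned negative. Counts of genes below the threshold in microglia moved from 14 higher and 233 lower to 11 higher and 21 lower with the subtraction.

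Shares of microglia nuclei with a UMI, after thinning each nucleus to 1000 UMIs (which left 110, 121, 136 and 92 nuclei), were compared next. For Cx3cr1 they were 65.5 and 65.3% in WT and 79.4 and 71.7% in Csf1r+/-, and without thinning 66.5, 65.0, 82.8 and 71.7%. P2ry6 was seen in 17.3 and 14.9% against 25.0 and 25.0% of nuclei, and unthinned in 18.2, 24.8, 27.2 and 27.5%. P2ry13 was seen in 10.9 and 8.26% against 18.4 and 14.1%, and unthinned in 11.9, 15.9, 21.9 and 17.4%. Sirpa was seen in 48.2 and 43.8% against 55.9 and 50.0%, and Cd47 in 16.4 and 15.7% against 11.03 and 7.61%. Unthinned, Sirpa was seen in 48.3, 49.7, 64.5 and 55.8%, and Cd47 in 13.1, 20.4, 16.0 and 13.8%, where the genotypes overlapped for Cd47. After thinning to 1000 UMIs they did not overlap for these 5 of the 10 genes, 4 higher and 1 lower in Csf1r+/-. Beside this, 41.9% of 2953 genes did not overlap, 22.9% higher and 19% lower. For the 5 genes the exact two-sided permutation test gave p = 0.333, the smallest value that 2 against 2 libraries allow. Thinning equalized all UMIs of a nucleus, free RNA included, and the part of free RNA in these shares was not tested. Thinned to 500 UMIs, P2ry6 overlapped (3.41 and 10.8% against 10.7 and 13.04%, exact permutation p = 0.667), and so did Cd47 (6.25 and 10.2% against 6.51 and 7.25%).

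In excitatory and inhibitory neurons no difference in the ligands was detected between the genotypes. Cx3cl1 differed by 0.06 in excitatory neurons (95% interval -0.42 to 0.54) and by -0.10 in inhibitory neurons (-0.42 to 0.23). Cd200 differed by -0.03 (-0.36 to 0.31) and -0.04 (-0.43 to 0.35). Cd47, with the narrowest intervals, differed by -0.06 (-0.29 to 0.17) and -0.02 (-0.21 to 0.16). Sirpa differed by -0.09 (-0.36 to 0.18) and -0.17 (-0.44 to 0.10), and in inhibitory neurons both Csf1r+/- libraries lay below both WT libraries. P2ry12 differed by 0.35 in both classes, with intervals of -0.42 to 1.13 and -0.41 to 1.10.

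At an unadjusted p under 0.01 in edgeR, 0 of 10 members were called in excitatory neurons (0.327% of all genes tested) and 0 of 10 in inhibitory neurons (0.0282%), and at 0.05 also none (1.83% and 1.14% of all genes tested). In each class 5 of the 10 members were above the detection limit that these shares cover: Sirpa, P2ry12 and the 3 ligands. DESeq2 called 0 in either class. Groups without overlap were found for 3 of 10 members in excitatory neurons (P2ry6, Cd47 and Entpd1, all lower in Csf1r+/-, beside 22.5% of all genes in either direction and 17.2% lower) and for 2 of 10 in inhibitory neurons (Sirpa and Entpd1, both lower, beside 22.2% and 12.5%). These shares too are over genes above the detection limit, and so do not cover P2ry6 and Entpd1.

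Neuron clusters were then tested one by one, with 207 tests of members in 28 clusters. Of these, 139 were of members above the detection limit of 10% of nuclei. Among the 139, 0 were called at p under 0.01 and 4 were below 0.05, where 0.58% and 3.12% of all tests above that limit were. Of the 68 below the limit, which these shares do not cover, 2 were called and 4 were below 0.05. After adjustment over the genes of a cluster none was called, beside 0.00145% of all such tests. In the cluster led by Atp10b and Fn1, Cd200r1 had 12 and 6 UMIs in the WT libraries (5.13 and 2.98 CPM) and 25 and 42 UMIs in the Csf1r+/- libraries, higher by 1.53 ± 0.40 on the log2 scale with an unadjusted p of 0.00384 in edgeR. The difference was 2.04 without WT replicate 1 and 1.19 without WT replicate 2. The call was lost without WT replicate 2 (p of 0.0243 in edgeR), Csf1r+/- replicate 1 (0.0168) or Csf1r+/- replicate 2 (0.0516). In the CA1-like cluster Entpd1 had 9 and 4 UMIs in WT and none in Csf1r+/- libraries (unadjusted p of 0.00411 in edgeR). Entpd1 at its pooled WT level was 1.86 times what 3 UMIs over the Csf1r+/- group would give. This ratio leaves out the counting error of the WT UMIs and is no lower limit for the gene. Without either Csf1r+/- library its p was 0.0327 or 0.0518. P2ry12 was higher in 22 of 28 clusters with none called, and P2ry6 lower in 6 of 6. The clusters share the same 4 libraries, so these signs are not independent. Cx3cl1 was higher in 13 and lower in 15 clusters.

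**Figure D5:**
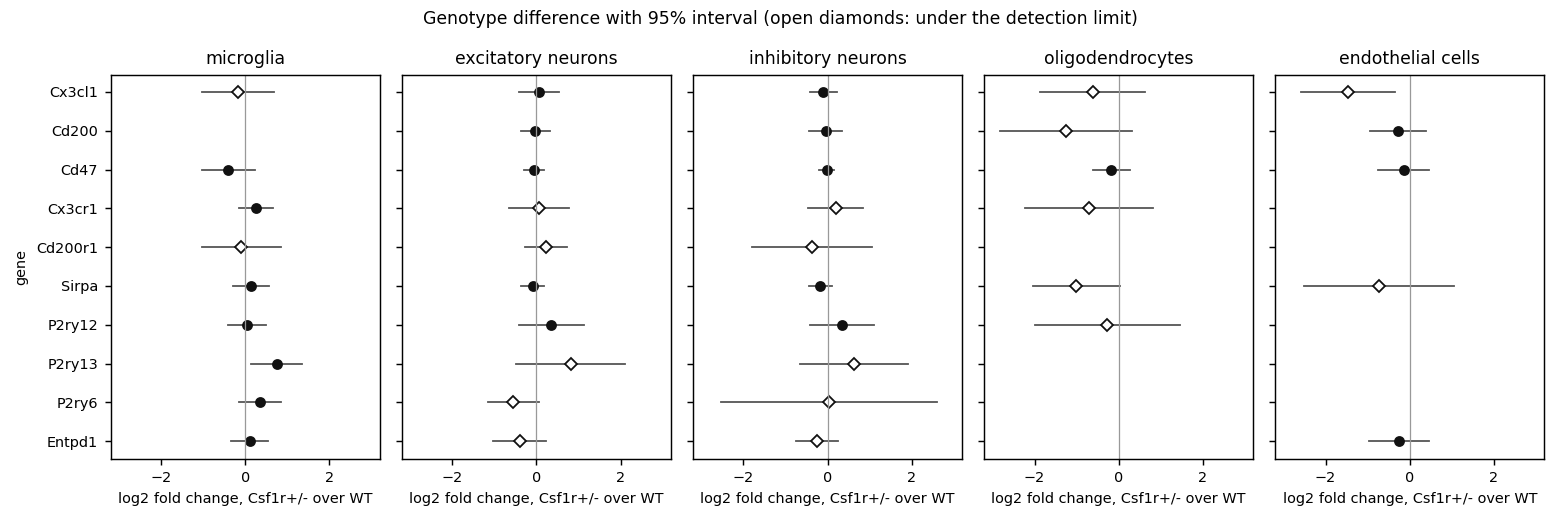
Log2 fold change of Csf1r+/- over WT (x axis) for each gene (y axis) in 5 classes, as point and 95% interval from edgeR; open diamonds are genes under the detection limit of 10% of nuclei in both genotypes. Intervals exclude 0 for P2ry13 in microglia (0.13 to 1.35) and Cx3cl1 in endothelial cells (-2.59 to -0.35).

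Other cells that carry these molecules gave few UMIs. In endothelial cells Cx3cl1 had 22, 8, 2 and 5 UMIs, which gave 69.9 and 64.0 CPM for WT against 15.7 and 35.6 CPM, a log2 fold change of -1.47 ± 0.54. Its unadjusted p was 0.0127 in edgeR's quasi-likelihood and 0.00693 in its likelihood-ratio test, and the gene was below the detection limit. It differed by -1.02 without Csf1r+/- replicate 1 (p of 0.117 in edgeR) and by -2.17 without Csf1r+/- replicate 2 (0.0116). The endothelial sums also held more pan-neuronal marker RNA in WT (7541 and 6541 CPM) than in Csf1r+/- (2356 and 3507 CPM), and the part of this in the Cx3cl1 difference was not tested beyond the subtraction, which gave -1.79 (unadjusted p of 0.0575 in edgeR). Endothelial Cd200, Cd47 and Entpd1 differed by -0.28, -0.14 and -0.26, each with an interval across 0. Of 5 members tested there, 0 were called by the quasi-likelihood test (7.13% of genes), with Cx3cl1 alone under 0.05 (13.9% of genes), and 1 had groups without overlap (lower, beside 44.9% in either direction and 18% lower). Of the endothelial members Cd200, Cd47 and Entpd1 were above the detection limit that these shares cover. In oligodendrocytes 0 of 6 were called (5.09%) and 0 were under 0.05 (10.4%), and 3 had groups without overlap, all lower (beside 37.1% in either direction and 17.7% lower): Cd47 with 418 UMIs, at 97.4 and 96.6 against 84.3 and 89.0 CPM, Sirpa and Cd200. Of the oligodendrocyte members Cd47 alone was above the detection limit, so the shares do not cover Sirpa and Cd200. Pan-neuronal marker RNA was lower there too, at 4893 and 4731 CPM for WT against 1993 and 3062 CPM. With free RNA subtracted, the log2 fold change in oligodendrocytes was -0.17 for Cd47, -1.10 for Sirpa and -1.64 for Cd200, with unadjusted p of 0.445, 0.317 and 0.436 in edgeR. DESeq2 called 0 in these 2 classes.

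In microglia 1 gene of the wider pathways, Csf1r, passed the threshold that 8.36% of all genes tested passed there. Of 24 further purinergic genes 7 had enough UMIs in microglia, 3 higher and 4 lower in Csf1r+/-, with a median log2 fold change of -0.21 beside 0.02 over all genes tested. They ranged from P2ry14, a receptor for UDP-glucose (-1.59 ± 0.48, 12 UMIs in all), to the nucleoside transporter gene Slc29a1 (0.57 ± 0.45). Gpr34, a lysophosphatidylserine receptor gene of the P2Y-like family, had 140, 91, 232 and 123 UMIs and differed by 0.51 ± 0.24 (unadjusted p of 0.0448 in edgeR). None of the 7 passed p under 0.01.

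Of 24 genes that act below the inhibitory receptors (phosphatases, adaptors and proteases that shed the ligands) 20 were measured in microglia, 13 higher and 7 lower, none called, with a median of 0.13. They ranged from Src (-0.71 ± 0.45) to Itgb3, an integrin gene (0.70 ± 0.43). Ptpn6 and Ptpn11, which encode the phosphatases SHP-1 and SHP-2 recruited by SIRPA, differed by 0.34 ± 0.41 and 0.40 ± 0.40. Gpr34, Ptpn6 and Ptpn11 were named after their values had been seen. Of 34 other checkpoint genes 18 were measured, 14 higher and 4 lower, with a median of 0.16, and Csf1r alone was called. The others ranged from Pilra (-1.73 ± 0.52, 13 UMIs in all) to Tgfbr1, a receptor chain for TGF-beta (0.45 ± 0.22). Beside the directions of the lists, 1550 of the 2953 genes above the detection limit in microglia were higher in Csf1r+/-. That share does not cover list genes below the limit. The list values are without subtraction of free RNA, whose estimated share was higher in WT microglia, and its part in them was not tested.

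In neurons Csf1r was also the only list gene called, and in the other direction. Excitatory neurons held 24 and 56 UMIs in WT and 211 and 267 in Csf1r+/- libraries, a log2 fold change of 2.48 ± 0.50 (unadjusted p of 0.00372 in edgeR), and inhibitory neurons 32, 39, 109 and 79 UMIs, 1.76 ± 0.24 (unadjusted p of 0.000443). Relative to the level in microglia these UMIs put Csf1r in neurons at 0.0657 and 0.156% in WT and at 0.688 and 0.747% in Csf1r+/-, beside the median of 0.0668% over the microglia markers. In both classes Csf1r was below the detection limit of 10% of nuclei, so the shares of 0.327% and 0.0282% do not cover it. The excitatory difference was 1.81 without WT replicate 1 and 3.52 without WT replicate 2. The excitatory call was lost without either Csf1r+/- library (unadjusted p of 0.0110 and 0.0114 in edgeR). The medians of the 3 lists in excitatory neurons were -0.03, -0.06 and -0.13, beside 0.00 over all genes tested.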

How the data were processed

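Nuclei of perfused brains were profiled with the 10x Chromium 3′ v3.1 chemistry, and the authors counted UMIs with Cell Ranger on mm10. The deposited values are raw counts of UMIs per gene and nucleus, 1 matrix for each of 4 mice. The study had 3 mice per genotype, and the third of each is not used here. Whether introns and read strand were used in counting is not given in the sources used here. The filter on nuclei is given in the report.

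Nuclei were clustered with scanpy 1.11.5 (3000 variable genes, 30 principal components, Leiden resolution 1), with the 10 genes and the pathway genes kept out of the variable genes. Doublets were scored with Scrublet. Clusters in which most nuclei scored high were left unnamed. Parts of glial and endothelial clusters were also left out where most nuclei scored high, or with much neuronal RNA or markers of another class. With 27 border macrophages set apart, microglia fell from 263, 406, 263 and 206 nuclei in the 4 libraries to 176, 157, 169 and 138. The endothelial cluster went from 783 to 452 nuclei. Removing the high scores that remained was an alternative. Classes needed markers enriched at least 2 times over other nuclei and seen in 10% of nuclei. The rules for naming clusters were set after the clusters had been seen, and the members and gene lists were chosen with earlier results of these data known.

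UMIs were summed per library and class and tested with edgeR 4.0.16 (quasi-likelihood, TMM, genes with at least 10 UMIs, R 4.3.3), after the script had been tested on simulated data. The background and the adjusted p-values (Benjamini-Hochberg) cover genes seen in 10% of nuclei of a genotype, and members below that limit have no adjusted p. The threshold was an unadjusted p under 0.01, as the authors chose; they also required detection in 10% of nuclei, while members and list genes below that limit are counted here too. Named genes were the members, pathway genes past the threshold (at most 6 in a class) and the extremes of a list's range, the 5 genes most like each ligand or Sirpa, markers and leading genes of clusters; Med12l, Gpr34, Ptpn6 and Ptpn11 were added after their values had been seen. Intervals are 95%, and limits for a count of 0 allow 3 counts and cover counting error only. Positions are from GENCODE release 21 and promoter windows from RefSeq. Alternatives were DESeq2 1.42.0, the likelihood-ratio test, other scaling, filters, clustering, subtraction of free RNA, a replicate block and leaving out each library. Libraries with the same number did not deviate together. The values of 1 microglia marker are not reported here.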

Additional observations from a re-analysis of the deposited data

Results flagged for a closer look

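Csf1r differed between the genotypes in opposite directions in different cells: the log2 fold change was -0.66 in microglia, and it was 2.48 in excitatory and 1.76 in inhibitory neurons. Every Csf1r+/- library lay below both WT libraries in microglia and above both in the neurons. The difference between these effects was not tested.

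P2ry6 was higher in both Csf1r+/- libraries in microglia (log2 fold change 0.35) and lower in both in excitatory neurons (-0.55, from 59 and 45 UMIs in WT and 34 and 38 in Csf1r+/-). This difference was not tested either, and neither effect passed the threshold.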

How the results depend on the processing

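Of 847 recomputed values, 547 single-gene values kept their direction and side of the threshold, among them 114 of 126 member fold changes in microglia under 14 settings. Another 41 changed direction, 3 gained the call and 6 lost it. Of the main values 223 stayed alike: counts of similar size, levels within the SD, or share differences of the same sign. Among the other main values 11 moved, 7 changed direction, 7 counts were larger and 2 smaller. The count of members called in microglia rose from 0 to 1 (P2ry13) without the detection filter, that in endothelial cells from 0 to 1 (Cx3cl1) in the likelihood-ratio test, and in that test the count in neuron clusters rose from 2 to 4 and that of pathway genes over the classes from 3 to 7. With free RNA subtracted, the log2 fold change in microglia turned to 0.037 for Cx3cl1, -0.042 for Sirpa, -0.15 for P2ry12 and -0.089 for Entpd1, and in oligodendrocytes to 0.44 for P2ry12. Cd200 in excitatory neurons was 0.011 without the detection filter. P2ry6 in inhibitory neurons (18 UMIs) was -0.036 with DESeq2, -0.17 without high Scrublet scores and -0.012 at resolution 0.5. Thinned to 500 UMIs, the difference in the share of microglia nuclei was -0.42 points for Cd200r1 and -0.26 for Entpd1. The cause of these changes was not tested.

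Leaving out 1 library at a time, where a lone library is assumed to vary like the others, gave 0 to 1 members called in microglia, 1 to 5 in neuron clusters and 1 to 10 pathway genes. P2ry13 in microglia ranged from 0.51 (without Csf1r+/- replicate 1, unadjusted p of 0.217 in edgeR) to 0.92 (without Csf1r+/- replicate 2, 0.00811). These log2 fold changes crossed 0: in microglia Cd200r1 (-0.70 to 0.62), Entpd1 (-0.10 to 0.28), P2ry12 (-0.21 to 0.33) and Sirpa (-0.050 to 0.35), in excitatory neurons Cd200 (-0.13 to 0.11), Cx3cl1 (-0.21 to 0.29), Cx3cr1 (-0.24 to 0.44), P2ry12 (-0.0036 to 0.74) and Sirpa (-0.17 to 0.0099), in inhibitory neurons Cd200 (-0.25 to 0.15), Cd200r1 (-1.13 to 0.15), Cd47 (-0.061 to 0.022), Cx3cl1 (-0.24 to 0.069), Cx3cr1 (-0.090 to 0.54), P2ry12 (-0.067 to 0.72) and P2ry6 (-1.78 to 1.38), in oligodendrocytes Cx3cl1 (-1.36 to 0.31), Cx3cr1 (-1.32 to 0.23) and P2ry12 (-0.83 to 0.24), and in endothelial cells Cd200 (-0.77 to 0.12), Cd47 (-0.31 to 0.065), Entpd1 (-0.60 to 0.050) and Sirpa (-2.18 to 0.70). Shares of nuclei differed by -1.99 to 2.84 points for Cd200r1, -5.30 to 10.2 for Entpd1 and -0.48 to 7.53 for P2ry12. The ratio of the highest to the lowest microglia part ranged from 1.66 to 2.89 for Cd200r1, 1.53 to 1.91 for Cx3cr1, 1.28 to 1.61 for Entpd1, 1.55 to 2.06 for P2ry12, 1.83 to 5.79 for P2ry13, 1.27 to 1.58 for P2ry6 and 1.39 to 1.52 for Sirpa.

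The same-numbered libraries share only a number (correlations of their deviations from -0.10 to 0.02). A replicate block called 0 members in each class, 3 in neuron clusters and 4 pathway genes, and moved the genes called in inhibitory neurons from 0 higher and 2 lower to 26 higher and 10 lower. In oligodendrocytes the block called 11 higher and 241 lower and the crossed block 3 higher and 240 lower, against 3 and 164 without, with 0 members in each. Over all genes, DESeq2 called 0 higher and 86 lower in microglia (14 and 233 by edgeR), 7 and 62 in excitatory neurons (3 and 22), 4 and 15 in inhibitory neurons and 1 and 89 in endothelial cells (17 and 253). Free RNA subtraction left 6 higher and 14 lower in endothelial cells and 2 and 41 in oligodendrocytes. The fewest UMIs in all microglia were those of Cd200 (5), Cx3cl1 (29), Cd200r1 (52), Cd47 (119), P2ry13 (134) and P2ry6 (183).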
